A study of Mus musculus with 6 samples.

Results

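Mouse muscle was compared with mouse embryonic fibroblasts (MEF) across all genes, by a test on the authors' own read counts. The comparison used the 2 libraries labelled muscle and the 2 libraries labelled MEF, which are 4 of the 6 RNA-seq libraries in the series. The other 2 libraries came from cells converted directly toward muscle, and they served here only to estimate the spread shared by all libraries. The labels give no strain, age, sex, genotype or treatment for either group, and they do not say which muscle was taken or whether it was tissue or culture. The library names carry the letters Endo for muscle and Tau for MEF, which the labels do not explain. Nothing in the labels says that the 2 libraries of a group came from separate animals or cultures, so every p-value below measures the spread between these libraries, which may be technical. An exact permutation test of 2 libraries against 2 cannot go below p = 0.333, so no single-gene permutation test is given.

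Skeletal muscle fibres are multinucleated cells that form when myoblasts stop dividing and fuse. A fibre contracts when its motor nerve releases acetylcholine at the neuromuscular junction, which fires an action potential, opens calcium stores at the triad and sets off a large demand for ATP. Embryonic fibroblasts are single, motile and dividing mesenchymal cells that secrete matrix and signalling proteins and respond to growth factors and to signs of infection. The functions described here are those beyond the contractile proteins, the cell cycle and the extracellular matrix.

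The labels held for the defining genes. Myog, the myogenic regulator that switches on terminal differentiation, stood at 1.597 and 1.21 CPM in MEF and 1102 and 992 CPM in muscle, where CPM is counts per 1000000 library counts after scaling with TMM factors. Ckm, the muscle creatine kinase, stood at 0.826 and 0.729 CPM in MEF and 938 and 1039.6 CPM in muscle. Thy1, a fibroblast surface protein, stood at 935 and 574 CPM in MEF and 25.4 and 18.7 CPM in muscle. In each of the 3 the groups were far apart and did not overlap. All 8 muscle fibre markers were higher in muscle, and 6 of 8 fibroblast markers were lower, although Col1a1, which makes up most of the fibroblast sum, still stood at 8228 and 3925 CPM in muscle against 18120 and 8973 CPM in MEF.

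Marker sums of several other cell types were lower in muscle than in MEF. The 14 macrophage and leukocyte markers summed to 74.6 and 55.2 CPM in MEF and to 19.9 and 13.998 CPM in muscle. Of 13 tested, 11 were lower, with Ptprc, Adgre1 and Tyrobp at 0 in muscle. Laptm5 and Mrc1 were not called. Laptm5 made up most of the muscle sum, at 10.3 and 4.47 CPM in MEF and 13.4 and 10.04 CPM in muscle. Endothelial markers summed to 24.6 and 23.2 CPM in MEF and 6.82 and 3.59 CPM in muscle. Of 8 tested, 5 were lower and 1 higher, and Pecam1 and Egfl7 were not called. The higher gene was Vwf, at 0.330 and 0.826 CPM in MEF and 3.45 and 1.95 CPM in muscle, a large part of the muscle sum. Of 7 adipocyte markers, 6 had no count in either muscle library, but most of these were near absent from MEF as well. There Cidec and Lep had no count, and Adipoq, Plin1 and Cfd had at most 4 counts in a library. Only 2 of the 7, Pparg and Fabp4, were tested, and both were lower. Schwann cell and nerve markers summed to 323 and 274 CPM in MEF and 63.9 and 46.6 CPM in muscle. Pericyte and smooth muscle markers summed to 831 and 596 CPM in MEF and 279 and 218 CPM in muscle, with 5 of 8 lower and 1 higher. The higher gene was Abcc9, at 3.25 and 4.23 CPM in MEF and 80.3 and 98.4 CPM in muscle, a large part of the muscle sum. Myh11 stood at 0.128 and 0.122 CPM in muscle and Kcnj8 had no count there. Tendon and cartilage marker sums overlapped between the groups, at 261 and 184 CPM in MEF and 193 and 189 CPM in muscle. Of 6 tested, however, 5 were lower in muscle. The 1 higher gene, Scx, made up most of the muscle sum, at 14.1 and 6.80 CPM in MEF and 159 and 163 CPM in muscle. Red blood cell markers stayed at or below 0.340 CPM in every library. Satellite cell markers summed to 252 and 201 CPM in MEF and 462 and 488 CPM in muscle. Of 7 tested, 4 were higher and 0 lower. Sdc4, which was not called, made up most of the MEF sum, at 219 and 157 CPM in MEF and 138 and 155 CPM in muscle. Megf10, called higher, stood at 28.1 and 37.8 CPM in MEF and 209 and 230 CPM in muscle. Chodl and Hey1 were not called, and Calcr had no count in either group. Pax7, which marks muscle stem cells, had no count in MEF and stood at 16.6 and 14.5 CPM in muscle. In bulk RNA, fewer cells of a type and less RNA per cell cannot be told apart.

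**Figure D1:**
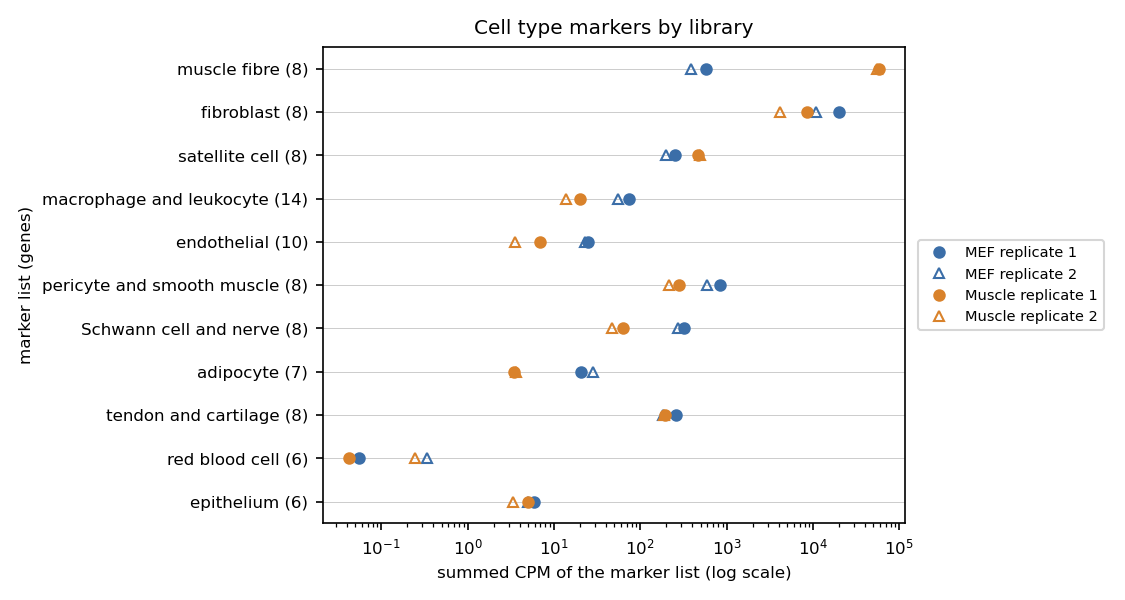
Summed CPM of the marker genes of each cell type (log axis) in the 4 libraries, 1 point per library. Muscle fibre markers sit at 58085 and 55649 CPM in muscle against 573 and 387 CPM in MEF, while the leukocyte, endothelial and adipocyte sums are lower in both muscle libraries than in both MEF libraries.

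Library totals ran from 16952000 to 24584951 counts. The 10 most abundant genes held 9.07% to 11.1% of the counts, and mitochondrially encoded genes held 1.88% and 1.98% in MEF and 4.45% and 4.80% in muscle. Genes of the X and Y chromosomes also moved with the groups. Xist, the RNA that silences an X chromosome in female cells, stood at 117 and 157 CPM in MEF and 399 and 616 CPM in muscle, and the Y-linked gene Ddx3y stood at 5.01 and 13.99 CPM in MEF with no count in muscle. Both genes differ by sex, the labels do not give the sex of the source cells, and its part in the other results was not tested.

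Of 17400 genes with enough counts to test, 35.6% differed between muscle and MEF at an adjusted p under 0.05 in edgeR's quasi-likelihood test with Benjamini-Hochberg adjustment over all tested genes. They comprised 3009 genes higher in muscle, which is 17.3% of those tested, and 3189 lower, which is 18.3%. Without muscle replicate 2 the counts were 1980 higher and 1778 lower, and without muscle replicate 1 they were 2113 and 2118. Functional lists are described below against those shares and against the median log2 fold change of all tested genes, which was 0. Muscle led in lists for the synapse, the triad, calcium handling, ion transport, the fibre membrane, energy supply and muscle-specific protein turnover. MEF led in lists for lipid synthesis, inflammation, interferon response, cell motility, growth factor signalling and mesenchymal transcription factors. Lists for the ribosome and the translation machinery held smaller shares of called genes than the whole table in both directions.

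**Figure D2:**
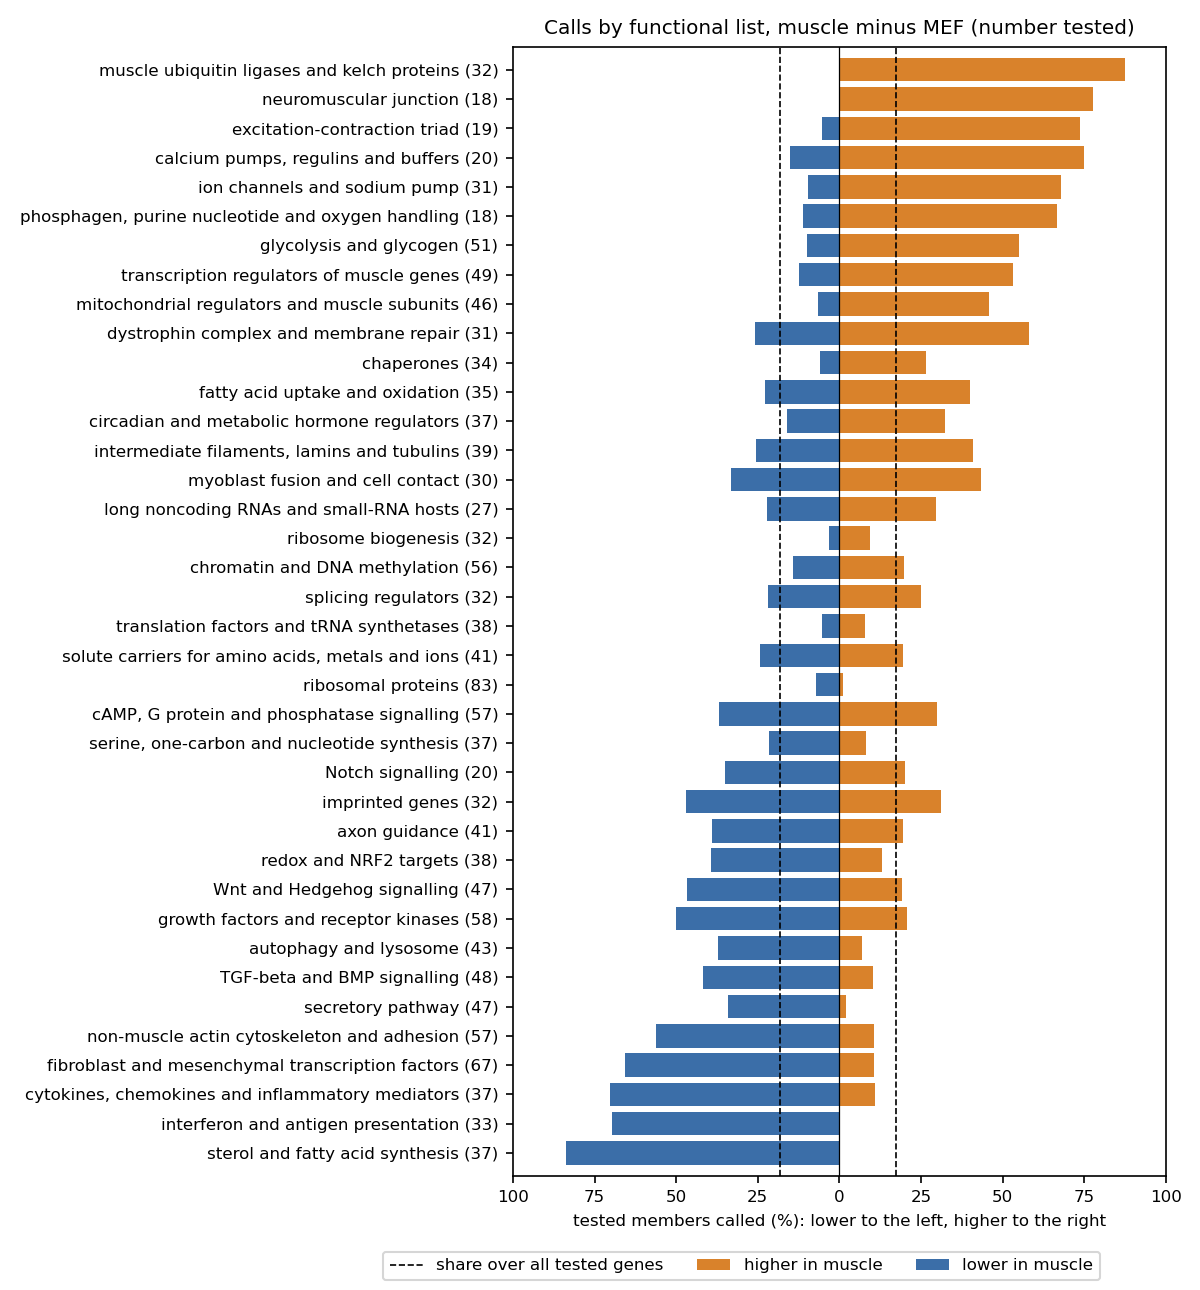
Percent of the tested genes in each of the 38 functional lists that were called higher in muscle (orange bars to the right) or lower (blue bars to the left), with the number tested in brackets and dashed lines at the shares over all tested genes. The ubiquitin ligase and kelch list has 28 of 32 genes higher and none lower, and the sterol and fatty acid synthesis list has 31 of 37 lower and none higher.

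Genes of the neuromuscular junction rose together in muscle. Of 18 listed genes 14 were higher and 0 lower, against 17.3% and 18.3% of all tested genes, with a median log2 fold change of 6.03. Chrna1, which encodes the acetylcholine-binding alpha subunit of the muscle nicotinic receptor (chr2:73563215-73580338 in mm10, the build of all coordinates here), stood at 4.13 and 3.16 CPM in MEF and 2729.7 and 2576 CPM in muscle. The log2 fold change was 9.51 ± 0.35 (SE), with an edgeR adjusted p of 9.44e-07. The delta subunit gene Chrnd (chr1:87190607-87200070) stood at 0.110 and 0.583 CPM in MEF and 666 and 636 CPM in muscle, a log2 fold change of 10.80 ± 0.57. Chrnb1, the beta subunit gene, had a higher starting level, at 16.9 and 13.5 CPM in MEF and 439 and 405 CPM in muscle.

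In the muscle libraries the embryonic gamma subunit of the receptor was far more abundant than the adult epsilon subunit. Chrng (chr1:87204657-87212694) stood at 0.275 and 0.680 CPM in MEF and 651 and 629 CPM in muscle, with a log2 fold change of 10.34 ± 0.55 and an edgeR adjusted p of 3.36e-06. Chrne, the epsilon subunit that replaces gamma after birth, had 1 count in MEF and 7.29 and 4.69 CPM in muscle. Per kilobase of exon, Chrng reached 156 and 151 CPM in the muscle libraries and Chrne 4.31 and 2.77 CPM, ratios of 36.3 and 54.5.

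Genes that assemble the synapse followed the receptor. Musk, the receptor kinase that organises the postsynaptic membrane, stood at 0.275 and 0.583 CPM in MEF and 180.4 and 258 CPM in muscle. Dok7, its cytoplasmic activator, had 2 counts in MEF against 99.8 and 50.5 CPM in muscle, a ratio of 1540.3 (interval 426 to 12724), where the interval is an exact Poisson 95 percent interval that covers counting error only. Rapsn, which clusters the receptors, stood at 0.771 and 0.194 CPM in MEF and 69.5 and 61.05 CPM in muscle, and Lrp4, the agrin receptor, at 4.02 and 2.96 CPM in MEF and 122 and 97.5 CPM in muscle. Ache, the acetylcholinesterase that ends transmission, stood at 0.165 and 0.0971 CPM in MEF and 54.4 and 36.2 CPM in muscle. Agrn, the nerve- and muscle-derived organiser itself, did not pass, at 59.7 and 44.6 CPM in MEF and 39.5 and 25.4 CPM in muscle (edgeR adjusted p = 0.136).

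The voltage sensor and the calcium release channel of the triad, the membrane junction that couples excitation to contraction, were among the most changed genes. In that list 14 of 19 genes were higher and 1 lower, with a median log2 fold change of 5.26. Cacna1s, the voltage-sensing calcium channel subunit (chr1:136052750-136119822), stood at 0.386 and 0.729 CPM in MEF and 717 and 698 CPM in muscle. Its log2 fold change was 10.28 ± 0.56, at an edgeR adjusted p of 3.68e-06. Ryr1, the release channel (chr7:29003344-29125179), stood at 0.661 and 0.389 CPM in MEF and 683 and 573 CPM in muscle, a log2 fold change of 10.22 ± 0.47. Both were below 1 CPM in each MEF library. Trdn, which anchors calsequestrin to the channel, had 2 counts in MEF and 99.2 and 153 CPM in muscle, a ratio of 2350 (interval 650.2 to 19411). Stac3, the adaptor that links sensor and channel, stood at 0.606 and 0.340 CPM in MEF and 69.5 and 74.5 CPM in muscle. Ryr3, another ryanodine receptor, stood at 0.551 and 0.389 CPM in MEF and 16.9 and 23.1 CPM in muscle, which per kilobase was 0.0285 and 0.0463 times Ryr1 in the muscle libraries. The 1 lower gene was Fkbp1a, an immunophilin that binds the channel, at 1053 and 813 CPM in MEF and 523 and 496 CPM in muscle. Its call did not hold when MEF replicate 1, muscle replicate 1 or muscle replicate 2 was left out, with edgeR adjusted p of 0.108, 0.0968 and 0.14.

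Junctophilins, which hold the triad membranes together, rose in both forms. Jph1 stood at 11.7 and 8.65 CPM in MEF and 130.3 and 139.6 CPM in muscle, and Jph2 at 31.6 and 19.1 CPM in MEF and 205 and 158 CPM in muscle. Bin1, which shapes the transverse tubule, stood at 91.2 and 75.2 CPM in MEF and 850.4 and 765 CPM in muscle, a log2 fold change of 3.28 ± 0.26. Another 4 membrane-trafficking or triad genes, Asph, Speg, Mtm1 and Dnm2, were not called.

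The starts of several of these genes hold the E-box CAGCTG, a sequence that myogenic bHLH factors can bind. The promoters of Chrna1, Chrng and Cacna1s are shown because they belong to the synapse and triad genes described above and their E-boxes can be seen close to the start. Each sequence is the 250 bases before the start on the gene's strand, from RefSeq on GRCm38.p6, with the E-box in capitals.
Chrna1 (chr2:73580339-73580588, minus strand): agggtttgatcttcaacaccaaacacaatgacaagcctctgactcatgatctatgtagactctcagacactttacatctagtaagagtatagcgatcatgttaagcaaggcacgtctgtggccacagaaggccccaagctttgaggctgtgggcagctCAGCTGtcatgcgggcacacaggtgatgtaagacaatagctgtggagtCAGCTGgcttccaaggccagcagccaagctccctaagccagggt
Chrng (chr1:87205561-87205810, plus strand): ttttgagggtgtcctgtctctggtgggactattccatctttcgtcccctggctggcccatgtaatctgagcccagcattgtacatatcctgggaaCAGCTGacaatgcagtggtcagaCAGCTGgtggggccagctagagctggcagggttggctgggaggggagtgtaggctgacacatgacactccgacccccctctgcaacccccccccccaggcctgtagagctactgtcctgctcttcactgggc
Cacna1s (chr1:136052561-136052810, plus strand): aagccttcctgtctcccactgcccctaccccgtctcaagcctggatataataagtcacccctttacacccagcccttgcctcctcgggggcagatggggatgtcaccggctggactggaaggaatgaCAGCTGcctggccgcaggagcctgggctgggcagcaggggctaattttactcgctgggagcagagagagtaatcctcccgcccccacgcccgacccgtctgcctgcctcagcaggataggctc

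E-boxes begin 92 and 44 bases before the start of Chrna1, 155 and 132 bases before that of Chrng and 123 bases before that of Cacna1s. These starts are those of RefSeq. For Chrng and Cacna1s they lie inside the gene spans given above, which are from GENCODE M21. The motif reads the same on both strands. In windows of 250 bases before to 50 after the start, 7 of 20 windows from 12 matched synapse genes (35%) and 7 of 18 windows from 11 matched triad genes (38.9%) held it, against 16.3% of all 32851 windows. Among genes called higher in muscle the share was 20.3%, and among genes called lower 16.4%. A match describes the letters and is not a measured binding site, and several windows can belong to 1 gene.

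Calcium pumps, their small regulators and the store proteins rose with the triad. Of 20 genes 15 were higher and 3 lower, with a median log2 fold change of 6.34. Atp2a1, the fast-fibre calcium pump of the sarcoplasmic reticulum (chr7:126445858-126463108), stood at 2.04 and 3.35 CPM in MEF and 2717 and 2672 CPM in muscle, a log2 fold change of 9.96 ± 0.48. Atp2a2, the pump of slow fibres and of most other cells, also rose, from 401 and 448 CPM to 1306 and 1579 CPM. Casq1, the main calcium buffer of the store (chr1:172209894-172219868), stood at 0.551 and 0.729 CPM in MEF and 721 and 839.8 CPM in muscle, and Casq2, its slow and cardiac form, at 0.881 and 2.23 CPM in MEF and 972 and 1142 CPM in muscle. Both forms of the buffer were thus abundant in both muscle libraries.

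Small inhibitors of the pump were unevenly present. Sln (sarcolipin) stood at 0.0551 and 0.291 CPM in MEF and 146 and 84.2 CPM in muscle, and Mrln (myoregulin) at 0.220 and 0.243 CPM in MEF and 13.6 and 27.997 CPM in muscle. Pln (phospholamban) had no count in MEF and stood at only 4.22 and 3.96 CPM in muscle. It was at least 26.3-fold higher against a limit of 3 counts in each MEF library. Pvalb, the cytosolic calcium buffer of adult fast fibres, had no count in MEF and stood at 4.31 and 10.1 CPM in muscle, at least 46.3-fold higher. Srl, Hrc and Smpx, which sit at the reticulum or the membrane skeleton, all rose, and Smpx reached 379 and 561 CPM.

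Store-operated entry rose while channels and chaperones of the general endoplasmic reticulum did not. Stim1, the store sensor, stood at 38.1 and 26.4 CPM in MEF and 160.4 and 173 CPM in muscle, and Orai1, the entry channel, at 36.9 and 19.4 CPM in MEF and 135 and 123 CPM in muscle. Itpr1, an inositol trisphosphate receptor, fell from 25.7 and 36.04 CPM to 9.85 and 5.78 CPM (log2 fold change -1.97 ± 0.35). Itpr3 and the calcium-binding chaperone gene Calr were also lower. Both lost the call without muscle replicate 2, which left 1 gene of the list called lower, and Itpr3 also lost it without MEF replicate 1 or muscle replicate 1.

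Ion channels of the fibre membrane followed, with 21 of 31 genes higher, 3 lower and a median log2 fold change of 4.57. Scn4a, the sodium channel of adult fibres, had 2 counts in MEF against 79.5 and 88.2 CPM in muscle, a ratio of 1609.8 (interval 445 to 13298). Kcnn3, a small-conductance potassium channel of immature or denervated fibres, stood at 0.275 and 0.874 CPM in MEF and 104 and 119 CPM in muscle. Clcn1, the chloride channel that stabilises the resting potential of adult fibres, stood at only 2.77 and 4.63 CPM in muscle against 0.606 and 0.534 CPM.

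ATP-sensitive potassium channels appeared in muscle. Kcnj11, their pore subunit, had no count in MEF and stood at 16.9 and 16.7 CPM, at least 108-fold higher. Abcc9, a regulatory subunit, rose from 3.25 and 4.23 CPM to 80.3 and 98.4 CPM. Ano5, a scramblase-like membrane protein mutated in muscular dystrophy, stood at 1.43 and 1.55 CPM in MEF and 379.7 and 464 CPM in muscle, a log2 fold change of 8.13 ± 0.33.

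Fxyd6, a small regulator of the sodium pump, rose from 12.4 and 11.8 CPM to 461 and 444 CPM. Trpc1, Piezo1 and Fxyd5 were lower, and each lost its call without muscle replicate 2 (edgeR adjusted p of 0.16, 0.202 and 0.0987). The lower count of this list was 1 without MEF replicate 1 and 0 without muscle replicate 2.

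The dystrophin complex, which ties the cytoskeleton to the matrix through the fibre membrane, was listed together with membrane repair and caveolar genes. Of these 31 genes 18 were higher and 8 lower, and the median log2 fold change was 1.76. Dmd (dystrophin, chrX:82948870-85206141) stood at 12.6 and 16.03 CPM in MEF and 140.5 and 217 CPM in muscle, a log2 fold change of 3.64 ± 0.32. Sgca, the alpha-sarcoglycan gene (chr11:94962791-94976327), stood at 0.330 and 0.389 CPM in MEF and 177 and 159 CPM in muscle, while Sgce, its epsilon relative of other tissues, fell from 118 and 118 CPM to 30.4 and 33.6 CPM. Dag1, the dystroglycan that both cell types used, stood at 439 and 313 CPM in MEF and 1388 and 1537 CPM in muscle.

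Genes of membrane repair and caveolae also changed in both directions. Trim72, which patches torn membrane (chr7:128003949-128011033), stood at 0.165 and 0.146 CPM in MEF and 381 and 311 CPM in muscle, a log2 fold change of 11.07 ± 0.53. Cav3, the muscle caveolin (chr6:112459505-112472872), stood at 1.87 and 1.31 CPM in MEF and 1063 and 923 CPM in muscle, and Cav1, the general caveolin, fell from 365 and 402 CPM to 32.4 and 43.8 CPM (log2 fold change -3.33 ± 0.28). Cavin4 rose to 618 and 742 CPM from 3.58 and 4.91 CPM, and Cavin2 fell from 127 and 121 CPM to 42.8 and 32.99 CPM. The annexins Anxa1 and Anxa2, which bind damaged membrane, fell, with Anxa2 at 1982 and 2024 CPM in MEF and 710 and 808 CPM in muscle. The Popeye domain genes Popdc2, Popdc3 and Bves, which bind cyclic AMP at the membrane, all rose, and Popdc3 stood at 0.771 and 1.12 CPM in MEF and 345 and 372 CPM in muscle.

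Handling of high-energy phosphate and oxygen rose strongly in a few genes. Of 18 tested genes 12 were higher and 2 lower, with a median log2 fold change of 1.54. Mb, the oxygen-binding myoglobin (chr15:77015487-77050670), stood at 0.936 and 2.23 CPM in MEF and 1705 and 1798 CPM in muscle, a log2 fold change of 10.09 ± 0.48. Ckmt2, the mitochondrial creatine kinase of muscle, had 1 count in MEF and 58.9 and 112 CPM in muscle, a ratio of 3123 (interval 560.2 to 123400). Gatm, which makes the creatine precursor guanidinoacetate, stood at 3.58 and 5.29 CPM in MEF and 176 and 236 CPM in muscle, a log2 fold change of 5.53 ± 0.36. Slc6a8, the creatine transporter, went the other way, at 309.7 and 178 CPM in MEF and 124 and 103 CPM in muscle. The lower calls of this list were Slc6a8 and Adss, and they numbered 0 without muscle replicate 1 and 1 without MEF replicate 1 or muscle replicate 2.

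In purine handling, Ampd1, the muscle AMP deaminase, had 2 counts in MEF against 35.5 and 34.996 CPM in muscle, a ratio of 684 (interval 189 to 5653). Adssl1, the muscle adenylosuccinate synthase, stood at 1.87 and 0.923 CPM in MEF and 159 and 149 CPM in muscle. Both act in the purine nucleotide cycle, which removes AMP during hard work.

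Genes of glycogen breakdown and glycolysis were higher in muscle more often than lower. In that list 28 of 51 tested genes were higher and 5 lower, with a median log2 fold change of 1.17. Pygm, the muscle glycogen phosphorylase (chr19:6384399-6398459), stood at 0.936 and 1.94 CPM in MEF and 941 and 937 CPM in muscle, a log2 fold change of 9.33 ± 0.51, and Pygb, the brain form, fell from 80.5 and 66.1 CPM to 23.2 and 20.5 CPM. Eno3, the muscle enolase (chr11:70657202-70662513), stood at 42.6 and 41.8 CPM in MEF and 1547 and 1586 CPM in muscle, while Eno1 was not called, at 665 and 612 CPM in MEF and 769 and 740.5 CPM in muscle. Pfkm, the muscle phosphofructokinase, rose from 20.7 and 19.8 CPM to 477 and 445 CPM. Pfkp, the platelet form, was also called higher, at 28.9 and 32.3 CPM in MEF and 51.5 and 61.7 CPM in muscle, but lost the call when any 1 of the MEF and muscle libraries was left out, with edgeR adjusted p between 0.054 and 0.172. Slc2a4, the insulin-responsive glucose transporter, rose from 1.65 and 0.923 CPM to 74.9 and 82.2 CPM, and Slc2a1, the general one, was lower at 312 and 185 CPM in MEF and 108 and 69.9 CPM in muscle. Slc2a1 lost its call without muscle replicate 2 (edgeR adjusted p = 0.0861), and the lower count of the list was then 2.

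Among shared steps, Aldoa, the main aldolase of muscle, rose from 2014 and 1238 CPM to 5411 and 6449.9 CPM, a log2 fold change of 1.87 ± 0.32. Hk1, Hk2, Pkm and Gapdh were not called, although Gapdh has many processed copies in the genome and its counts are uncertain. Gys1, glycogen synthase, rose to 520.1 and 566 CPM. Pdk4, which holds back pyruvate oxidation, stood at 9.53 and 15.4 CPM in MEF and 132 and 238 CPM in muscle, a log2 fold change of 3.89 ± 0.39.

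For 37 pairs of related genes with a broad and a muscle form, the muscle form's share of the pair's summed CPM per kilobase was compared by library. It was higher in both muscle libraries than in every MEF library with counts for the pair in 31 pairs. It was lower in 2 pairs, Tuba1b with Tuba8 and Jph1 with Jph2, and overlapped in 4. The form that held most of the pair's signal differed between the groups in 16 pairs. In 1 pair, counted in both the 31 and the 16, MEF replicate 1 had no count of either gene. Its MEF share rests on MEF replicate 2 alone. Pgam2 held 7.05% and 6.53% in MEF and 95.4% and 96.7% in muscle of phosphoglycerate mutase. Cav3 held 1.51% and 0.963% in MEF and 98.99% and 98.4% in muscle of the caveolin pair, and Sgca 1.69% and 1.97% in MEF and 97.3% and 96.7% in muscle of the sarcoglycan pair. Ckm held 0.296% and 0.539% in MEF and 65.1% and 72.1% in muscle of cytosolic creatine kinase. Its partner Ckb, the brain form, was not called, at 276 and 134 CPM in MEF and 501 and 399 CPM in muscle (edgeR adjusted p = 0.0927). Ckb was called higher by DESeq2 (adjusted p = 0.034). It was also called higher by edgeR with the MEF and muscle libraries alone (adjusted p = 0.0275) and with no filter on low counts (adjusted p = 0.00118). Its log2 fold change was 1.135 with all libraries and 1.748 without MEF replicate 1. Without replicate 1 or replicate 2 of the converted cells it was 1.136 and 1.116. Pairs were listed with these data known, so their direction was partly set by the choice.

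**Figure D3:**
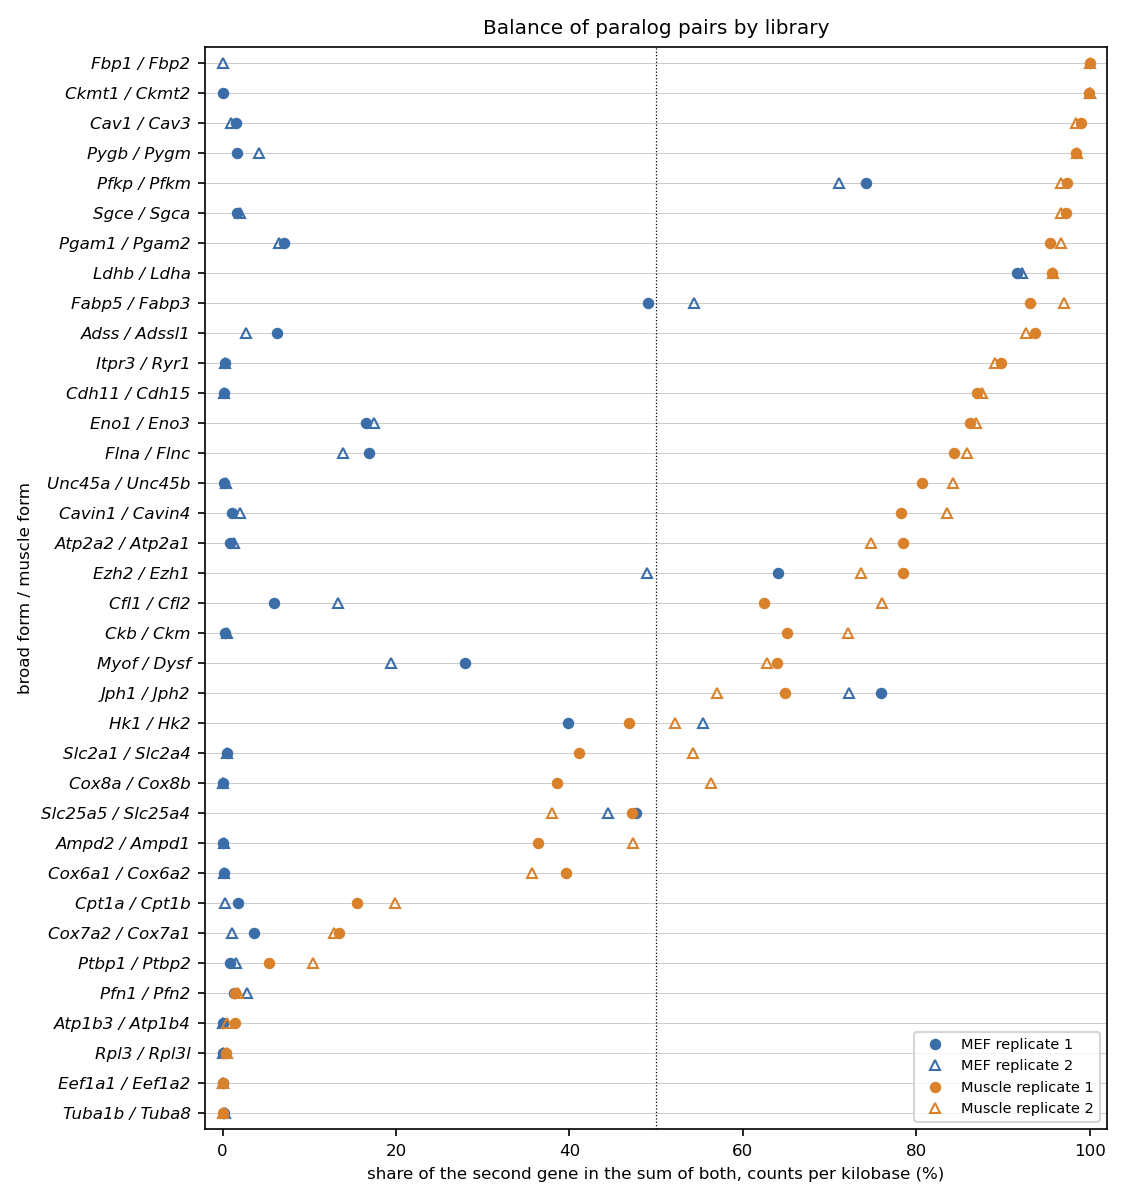
Share of the summed CPM per kilobase that came from the muscle form (percent) in 36 of the 37 pairs, 1 point per library, with MEF and muscle in separate colours. Cav3 reaches 99.0% and 98.4% in muscle from 1.51% and 0.963% in MEF, while Cox8b and Cox6a2 stay between 35.7% and 56.3% in muscle.

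Genes of fatty acid uptake and oxidation changed in both directions. Of 35 tested genes 14 were higher and 8 lower, with a median log2 fold change of 0.76. The lower share, 22.9%, was near the 18.3% of all tested genes. Cd36, the fatty acid transporter of muscle, stood at 0.386 and 1.51 CPM in MEF and 72.8 and 71.5 CPM in muscle, a log2 fold change of 6.22 ± 0.55, and Acadl, a mitochondrial acyl-CoA dehydrogenase, rose from 51.3 and 67.7 CPM to 286 and 340 CPM. Lpl, the lipase that releases fatty acids from lipoproteins, fell from 105 and 135 CPM to 6.52 and 10.2 CPM. Fabp4, the fatty acid carrier of adipocytes and macrophages, had 7.49 and 15.6 CPM in MEF and no count in muscle, at least 74.5-fold lower. The adipocyte marker sum fell from 20.5 and 28.3 CPM to 3.50 and 3.65 CPM, but Fabp4 is itself among its 7 genes. Pparg, at 12.6 and 12.2 CPM in MEF and 3.50 and 3.65 CPM in muscle, made up all of the muscle sum. The sum is therefore not separate from Fabp4, and the part of adipocytes in these genes was not tested.

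Cpt1a, the liver form of the enzyme that admits fatty acids to mitochondria, fell from 88.8 and 75.5 CPM to 17.9 and 12.2 CPM. Cpt1b, the muscle form, stood at only 1.45 and 1.34 CPM in muscle and was not called, at an edgeR adjusted p of 0.149 that was 0.0281 without MEF replicate 1. The higher count of this list was 9 without muscle replicate 1 and 8 without muscle replicate 2, which also left 5 lower.

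Mitochondrial regulators and muscle-type subunits had 21 of 46 tested genes higher and 3 lower, with a median log2 fold change of 0.84. Ppargc1a and Ppargc1b, coactivators of mitochondrial genes, rose from 0.441 and 0.291 CPM to 8.14 and 12.6 CPM and from 1.54 and 0.777 CPM to 18.7 and 14.6 CPM. Esrrb, an oestrogen-related receptor, had no count in MEF and stood at 15.99 and 20.3 CPM, at least 117-fold higher. Coq8a, needed for coenzyme Q synthesis (chr1:180165238-180199602), stood at 1.98 and 1.41 CPM in MEF and 310.4 and 328 CPM in muscle, a log2 fold change of 7.56 ± 0.34. Cox8b and Cox6a2, muscle forms of cytochrome oxidase subunits, stood at 131 and 219 CPM and 128 and 109 CPM in muscle, with log2 fold changes of 9.88 ± 0.51 and 7.10 ± 0.45.

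Of the core enzymes, Cs (citrate synthase), Mdh2 and Ogdh were not called. The lower genes were Slc25a13, Pparg and Cox6a1, and their number was 1 without either muscle library and 5 without MEF replicate 2. The share of mitochondrially encoded counts rose in parallel, as given above.

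Muscle-specific ubiquitin ligases and kelch proteins rose almost as a whole list, with 28 of 32 genes higher, 0 lower and a median log2 fold change of 5.67. Klhl41, which stabilises thin filaments (chr2:69670120-69684230), stood at 0.936 and 0.971 CPM in MEF and 645 and 792 CPM in muscle, or 9.55 ± 0.36 on the log2 scale at an edgeR adjusted p of 9.44e-07. Klhl40 and Klhl31, its relatives, reached 190.2 and 135 CPM and 263 and 321 CPM. Trim55, a titin-associated ligase, stood at 0.165 and 0.243 CPM in MEF and 179 and 202 CPM in muscle, and Trim63, the atrophy ligase MuRF1, at 0.386 and 0.729 CPM in MEF and 57.9 and 51.3 CPM in muscle. Fbxo32, the other well-known atrophy ligase, was not called, at 18.8 and 17.6 CPM in MEF and 15.99 and 16.9 CPM in muscle. Capn3, the muscle calpain, stood at 0.165 and 0.291 CPM in MEF and 149 and 158 CPM in muscle, a log2 fold change of 9.33 ± 0.39.

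Of 34 chaperone genes 9 were higher (26.5%) and 2 lower (5.88%), against 17.3% and 18.3% of all tested genes, with a median log2 fold change of 0.26. Hspb3, a small heat shock protein (chr13:113662896-113663676), stood at 0.275 and 0.243 CPM in MEF and 119.5 and 161 CPM in muscle, and Smyd1, a methyltransferase that helps myosin fold, stood at 0.496 and 0.486 CPM in MEF and 435 and 402 CPM in muscle. Unc45b, the myosin chaperone, stood at 0.0551 and 0.0971 CPM in MEF and 84.2 and 77.4 CPM in muscle, of which MEF had 3 counts. Cryab and Hspb7, which protect the contractile lattice, rose to 1075 and 1122 CPM and 968 and 817 CPM. Hspa5, Hspa8, Hsp90ab1 and the chaperonin genes Cct2, Cct4, Cct5 and Tcp1 were not called. The lower genes, Dnajb1, a partner of HSP70, and Unc45a, the general relative of Unc45b, numbered 1 without muscle replicate 1, 0 without muscle replicate 2 and 5 without MEF replicate 1.

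Lysosomal genes were lower in muscle more often than higher. Of 43 autophagy and lysosome genes 16 were lower and 3 higher, with a median log2 fold change of -0.62. Ctsb, a cathepsin protease, fell from 838 and 895 CPM to 348 and 351 CPM. Gla, the alpha-galactosidase, fell from 27.2 and 39.6 CPM to 8.83 and 7.79 CPM. Ctss, a cathepsin typical of macrophages, was among the lower genes, at 1.38 and 3.40 CPM in MEF and 0.0426 and 0 CPM in muscle, while the macrophage marker sum fell as given above. Bnip3, a mitophagy receptor, went up instead, from 62.1 and 51.9 CPM to 286 and 520 CPM (log2 fold change 2.82 ± 0.33). Core autophagy genes such as Ulk1, Atg5 and Becn1 were not called. Without muscle replicate 2 the lower count was 7.

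Splicing regulators had 8 of 32 tested genes higher and 7 lower (21.9%), near the shares over all tested genes, and a median log2 fold change of -0.19. Rbm24 (chr13:46418434-46431095), which promotes inclusion of muscle exons, stood at 0.330 and 0.340 CPM in MEF and 221 and 289 CPM in muscle, a log2 fold change of 9.54 ± 0.39. Rbfox1, which binds next to muscle and neural exons, stood at 1.05 and 0.729 CPM in MEF and 100 and 88.6 CPM in muscle, and Rbm20, the splicing factor of titin, at 1.71 and 0.826 CPM in MEF and 90.4 and 70.5 CPM in muscle. Ptbp1, a repressor of tissue-specific exons, fell from 802 and 519 CPM to 159 and 104 CPM (log2 fold change -2.33 ± 0.37). Mbnl3, the muscleblind form found in immature muscle cells and placenta, fell from 11.7 and 15.2 CPM to 1.15 and 1.03 CPM. General factors such as Srsf1, Hnrnpl and Elavl1 were not called. Without muscle replicate 1 the lower count was 4.

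The machinery of protein synthesis held few called genes. Of 83 ribosomal protein genes 1 was higher and 6 lower, shares below the background of all genes, with a median log2 fold change of -0.18. Rpl3l, the striated-muscle form of a large-subunit protein, was the 1 higher gene, with 3 counts in MEF and 0.810 and 1.22 CPM in muscle. Rpl39l fell from 10.6 and 12.4 CPM to 0.512 and 0.487 CPM. The lower count of this list was 11 without MEF replicate 2, 2 without muscle replicate 1 and 1 without muscle replicate 2, and the higher count was 2 without MEF replicate 2. Ribosomal protein genes have many near-identical copies, and no source used here says how multiply mapping reads were counted, so their values are uncertain.

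Among 38 translation factors and tRNA synthetases 3 were higher and 2 lower, and among 32 ribosome biogenesis genes 3 were higher and 1 lower. Their median log2 fold changes were -0.03 and 0.09. These small counts moved with single libraries. For translation factors the higher count was 1 without MEF replicate 1 or muscle replicate 2, and the lower count was 1 without MEF replicate 1 or either muscle library. For ribosome biogenesis the higher count was 1 without either muscle library, and the lower count was 2 without MEF replicate 1 and 0 without MEF replicate 2 or muscle replicate 1. Eef1a2, the muscle and neuron form of the elongation factor, held only 0.113% and 0.0507% of its pair with Eef1a1 in muscle.

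Most genes of sterol and fatty acid synthesis were lower in muscle. Of 37 genes 31 were lower and 0 higher, against 18.3% lower among all tested genes, with a median log2 fold change of -1.90. The cell-cycle genes, of which 148 of 184 were lower, moved in the same direction, and their part in this list was not tested. In the early pathway, Hmgcs1, which makes HMG-CoA, stood at 204 and 276 CPM in MEF and 68.4 and 108 CPM in muscle. It lost the call without muscle replicate 1, with an edgeR adjusted p of 0.058. Mvk, mevalonate kinase, fell from 79.6 and 42.8 CPM to 16.1 and 11.3 CPM, and Fdps, which makes farnesyl diphosphate, from 93.7 and 99.3 CPM to 31.7 and 32.4 CPM.

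In the committed sterol branch, Sqle, squalene epoxidase (chr15:59315077-59331192), fell from 248 and 271 CPM to 42.8 and 60.6 CPM, or -2.33 ± 0.28 on the log2 scale at an edgeR adjusted p of 0.000287. Lss, which closes the sterol rings, fell from 133 and 114 CPM to 17.4 and 23.6 CPM. Cyp51, the lanosterol demethylase, stood at 228 and 316 CPM in MEF and 51.6 and 94.03 CPM in muscle. Ebp and Dhcr7, late enzymes of the same branch, were not called, with Dhcr7 at 90.5 and 61.5 CPM in MEF and 90.1 and 83.9 CPM in muscle.

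Of the regulators, Insig1, which retains the sterol sensor in the reticulum, fell from 282 and 262 CPM to 68.996 and 75.1 CPM. Srebf2, the transcription factor that drives the sterol genes, was lower at 622 and 374 CPM in MEF and 207 and 176 CPM in muscle but lost its call without MEF replicate 1 or either muscle library, with edgeR adjusted p between 0.0597 and 0.119. Srebf1 and Scap, a related factor and its escort, were not called (edgeR adjusted p = 0.145 and 0.0749). Srebf1 was called lower without MEF replicate 2 (edgeR adjusted p = 0.0137) and with no filter on low counts (0.0107). Scap was called lower under 6 alternatives, DESeq2 and the fit without MEF replicate 2 among them, with adjusted p from 0.000815 to 0.028.

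Fatty acid synthesis and desaturation moved the same way. Acly, which supplies cytosolic acetyl-CoA, fell from 602 and 515 CPM to 102 and 99.5 CPM, and Fasn, the fatty acid synthase, from 775 and 412 CPM to 139 and 111 CPM. The desaturase genes Fads1 (chr19:10182888-10196877) and Fads2 (chr19:10062765-10101746), which make polyunsaturated chains, stood at 400.2 and 306 CPM in MEF and 53.2 and 42.8 CPM in muscle and at 281 and 234 CPM in MEF and 29.9 and 27.4 CPM in muscle. Their log2 fold changes were -2.88 ± 0.28 and -3.17 ± 0.27. Elovl6, which lengthens saturated chains, fell from 64.4 and 91.9 CPM to 4.05 and 5.54 CPM, a log2 fold change of -4.03 ± 0.38. In each of these genes both muscle libraries lay below both MEF libraries.

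**Figure D4:**
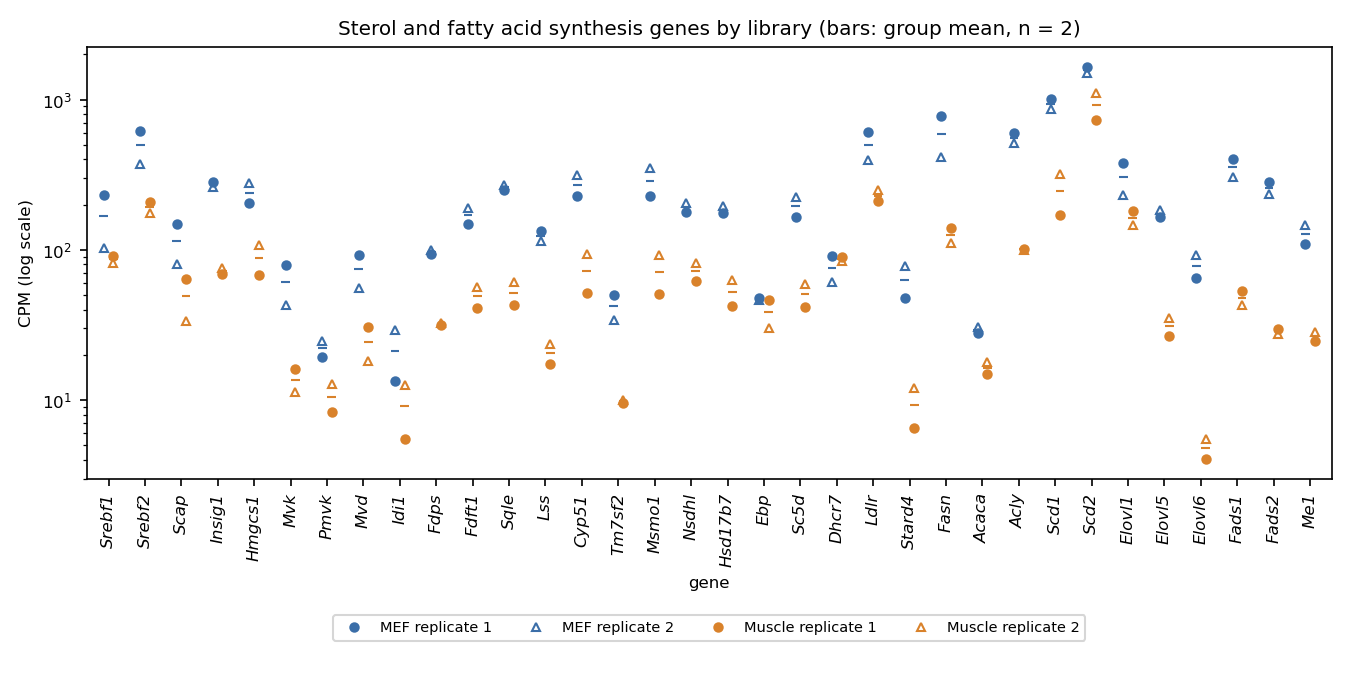
CPM of 34 of the 37 sterol and fatty acid synthesis genes (log axis), 1 point per library, with a bar at each group's mean. Fads1, Fads2 and Elovl6 lie far lower in both muscle libraries than in both MEF libraries, and of the genes drawn Dhcr7 and Ebp are among those that did not pass the test.

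A single gene of the list held the core of the sterol regulatory element, TCACNCCAC, in its promoter window. The promoter of Hmgcs1 is shown because it is that gene. The 250 bases before the start are from RefSeq on GRCm38.p6, with the motif in capitals.
Hmgcs1 (chr13:119690101-119690350, plus strand): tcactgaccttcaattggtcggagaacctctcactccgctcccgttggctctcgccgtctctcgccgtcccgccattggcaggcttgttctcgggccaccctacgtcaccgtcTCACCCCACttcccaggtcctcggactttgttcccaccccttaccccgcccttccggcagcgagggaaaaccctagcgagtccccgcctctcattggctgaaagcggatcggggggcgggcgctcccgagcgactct

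The motif begins 137 bases before the start. Searched on both strands, it was present in 1 of 34 windows of the 26 matched genes (2.94%) and in 1.24% of all windows.

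Genes of the general secretory pathway were partly lower. Of 47 genes 16 were lower and 1 higher, with a median log2 fold change of -0.60. Sec61a1 and Sec61b, parts of the channel into the endoplasmic reticulum, fell from 353 and 291 CPM to 131 and 96.7 CPM and from 189.7 and 119 CPM to 43.5 and 38.3 CPM. Kdelr2, which returns resident proteins, fell from 753 and 515 CPM to 218 and 159 CPM, and Pdia4, a disulfide isomerase, from 369.7 and 497 CPM to 168 and 148 CPM. Atf6, a sensor of unfolded proteins, was the 1 higher gene, at 70.6 and 74.2 CPM in MEF and 164 and 205 CPM in muscle, while Xbp1 and Atf4 were not called. The lower count was 8 without muscle replicate 1 and 7 without muscle replicate 2, and the higher count was 2 without MEF replicate 2.

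Redox genes also leaned to MEF, with 15 of 38 lower and 5 higher and a median log2 fold change of -0.65. Hmox1, heme oxygenase (chr8:75093621-75100589), fell from 752 and 524 CPM to 104 and 102 CPM, or -2.63 ± 0.29 on the log2 scale at an edgeR adjusted p of 0.000174. Nqo1, a quinone reductase, and Srxn1, sulfiredoxin, both known targets of NRF2, fell from 25.004 and 36.1 CPM to 4.52 and 5.23 CPM and from 65.5 and 66.2 CPM to 11.9 and 16.8 CPM. Mt1, a metallothionein, fell from 1047 and 634 CPM to 133 and 124 CPM. The NADPH-producing pentose phosphate route fell at G6pdx, Pgd and Tkt, with Tkt (transketolase) at 418 and 287 CPM in MEF and 41.7 and 36.7 CPM in muscle, a log2 fold change of -3.17 ± 0.31.

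Gpx3, a secreted glutathione peroxidase (chr11:54902453-54910377), was the main exception, at 128 and 102 CPM in MEF and 1488 and 1677 CPM in muscle, a log2 fold change of 3.78 ± 0.28. Sod2, the mitochondrial superoxide dismutase, rose from 44.3 and 47.6 CPM to 103 and 117 CPM. The higher count was 3 without either MEF library or without muscle replicate 1, and 2 without muscle replicate 2.

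Serine, one-carbon and nucleotide synthesis had 3 of 37 genes higher (8.11%) and 8 lower (21.6%), the second near the share over all tested genes, with a median log2 fold change of -0.23. Aldh1l2, a mitochondrial folate enzyme, fell from 85.1 and 95.9 CPM to 37.99 and 40.3 CPM, and Prps2, which makes the ribose donor of nucleotides, from 34.4 and 34.001 CPM to 14.4 and 14.6 CPM. Aldh1l2 lost its call without muscle replicate 1 and Prps2 without either muscle library, with edgeR adjusted p between 0.0517 and 0.0652. Psat1, Shmt2, Mthfd2 and most purine synthesis genes were not called. The lower count was 1 without muscle replicate 1 and 2 without muscle replicate 2, and the higher count was 1 without either of them.

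The non-muscle actin cytoskeleton and its adhesion sites were lower in muscle, with 32 of 57 genes lower, 6 higher and a median log2 fold change of -0.85. Actb, the beta-actin of motile cells, fell from 12803 and 7759 CPM to 2007 and 1599 CPM, and Actg1, the gamma form, from 3085 and 1779 CPM to 456 and 325 CPM. Actin genes have many processed copies, so these counts are uncertain. Tagln, a smooth-muscle and myofibroblast protein, fell from 789 and 558 CPM to 74.4 and 32.3 CPM (log2 fold change -3.66 ± 0.42), while pericyte and smooth muscle markers summed to 831 and 596 CPM in MEF and 279 and 218 CPM in muscle. Flna, a general filamin, fell from 2787 and 2057 CPM to 383 and 255 CPM. Flnc, the muscle filamin, rose from 568 and 332 CPM to 2058 and 1545 CPM, and Cfl2, the muscle cofilin, from 111 and 186 CPM to 529 and 840.3 CPM. Cd44, the hyaluronan receptor, fell from 638 and 700.2 CPM to 156 and 166 CPM.

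Intermediate filament, lamin and tubulin genes held 16 higher and 10 lower of 39, with a median log2 fold change of 0.62. Des (desmin, chr1:75360329-75368579) rose from 185 and 133 CPM to 4276 and 4186 CPM, a log2 fold change of 4.73 ± 0.33, and Vim, the fibroblast filament, fell from 6631 and 5126 CPM to 1709 and 1198 CPM. Nes (nestin), known from forming muscle and neural progenitors, stood at 23.7 and 22.8 CPM in MEF and 599 and 441 CPM in muscle. Akap6, which anchors signalling and centrosomal proteins at the nuclear envelope of muscle, stood at 2.37 and 2.77 CPM in MEF and 293 and 291 CPM in muscle, a log2 fold change of 6.82 ± 0.31. Mapt, the tau gene, stood at 0.330 and 0.0486 CPM in MEF and 12.4 and 5.78 CPM in muscle. Lmnb1, a lamin of dividing cells, fell from 22.3 and 20.3 CPM to 4.18 and 4.08 CPM. Without muscle replicate 1 the higher count was 7.

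Cytokines, chemokines and inflammatory mediators were mainly lower in muscle. Of 37 tested genes 26 were lower and 4 higher, with a median log2 fold change of -2.23. Cxcl12, which attracts stem cells and leukocytes (chr6:117168535-117181367), fell from 650.4 and 426 CPM to 2.64 and 2.80 CPM, or -7.63 ± 0.37 on the log2 scale at an edgeR adjusted p of 2.35e-06. Csf1, the macrophage growth factor, fell from 1961 and 1353 CPM to 178 and 128 CPM. Il1rl1, which encodes the IL-33 receptor, fell from 188 and 246 CPM to 1.41 and 0.913 CPM. Il1rn, the antagonist of IL-1, stood at 70.3 and 62.6 CPM in MEF and had 2 counts in muscle, a ratio of MEF to muscle of 1320.1 (interval 365 to 10907). Cxcl5, a neutrophil chemokine, likewise had 2 counts in muscle against 52.98 and 39.7 CPM in MEF.

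In the prostaglandin pathway, Ptgs1 and Ptges fell, from 109 and 94.4 CPM to 18.2 and 18.1 CPM and from 45.4 and 38.8 CPM to 5.80 and 3.59 CPM. Il33, an alarmin, went up from 1.93 and 2.62 CPM to 10.7 and 14.4 CPM, and Tnfaip3, which dampens NF-kappaB signalling, from 11.8 and 10.8 CPM to 28.8 and 30.6 CPM. Macrophage markers were themselves higher in MEF, with 11 of 13 tested genes lower in muscle, and their part in these differences was not tested. Without muscle replicate 1 the higher count was 2.

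Interferon response and antigen presentation had 23 of 33 tested genes lower, 0 higher and a median log2 fold change of -2.16. Isg15, a ubiquitin-like protein induced by interferon, fell from 13.7 and 11.4 CPM to 2.56 and 0.974 CPM, or -2.79 ± 0.47 on the log2 scale at an edgeR adjusted p of 0.00203. Usp18, which removes Isg15, fell from 8.59 and 9.42 CPM to 0.469 and 0.487 CPM, and Ifit1 stood at 5.51 and 9.13 CPM in MEF and 0.0426 and 0.730 CPM in muscle. B2m, the shared light chain of class I molecules, fell from 889 and 1130.4 CPM to 257 and 286 CPM, while H2-K1 was not called.

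Promoters of Isg15 and Ifit1 are shown because they carry the interferon-stimulated response element, GAAANNGAAA, near the start. Each sequence is the 250 bases before the start on the gene's strand, from RefSeq on GRCm38.p6. Capitals mark the motif, which in Ifit1 lies on the opposite strand and so reads TTTCNNTTTC.
Isg15 (chr4:156200819-156201068, minus strand): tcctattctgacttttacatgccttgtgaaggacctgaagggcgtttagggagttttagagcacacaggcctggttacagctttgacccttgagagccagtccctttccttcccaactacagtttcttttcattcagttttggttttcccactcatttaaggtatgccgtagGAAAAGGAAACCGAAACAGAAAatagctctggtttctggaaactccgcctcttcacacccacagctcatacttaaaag
Ifit1 (chr19:34640639-34640888, plus strand): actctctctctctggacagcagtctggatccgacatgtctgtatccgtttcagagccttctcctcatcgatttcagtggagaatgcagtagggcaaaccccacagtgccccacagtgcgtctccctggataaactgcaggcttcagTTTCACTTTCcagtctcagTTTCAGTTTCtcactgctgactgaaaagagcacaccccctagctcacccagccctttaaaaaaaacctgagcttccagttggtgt

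Matches begin 78, 72 and 66 bases before the start of Isg15, where they overlap, and 104 and 85 bases before that of Ifit1. On both strands together, 12 of 31 windows of the 26 matched interferon genes held the motif (38.7%), against 3.44% of all windows, 4.56% of windows of genes called lower and 1.93% of those called higher. The list was assembled from known interferon targets, so its share describes the list and not the comparison.

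Growth factors and receptor kinases were lower more often than higher, 29 against 12 of 58 tested genes, with a median log2 fold change of -1.01. The higher share, 20.7%, was near the 17.3% of all tested genes. Among fibroblast growth factors, Fgf7 and Fgf10, which act on epithelia, fell in muscle. Fgf7 went from 63.7 and 82.6 CPM to 7.29 and 6.33 CPM, and Fgf10 had 45.9 and 47.5 CPM in MEF and 3 counts in muscle. Fgf21, a stress hormone of liver and muscle (chr7:45613886-45615490), stood at 0.606 and 0.389 CPM in MEF and 41.4 and 58.9 CPM in muscle, a log2 fold change of 6.65 ± 0.42. Fgf13, an intracellular relative that binds sodium channels, rose from 3.03 and 3.79 CPM to 60.2 and 59.2 CPM.

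The FGF receptors changed in opposite directions. Fgfr2, a receptor for Fgf7 and Fgf10, fell, at 41.5 and 39.1 CPM in MEF and 0.384 and 0.304 CPM in muscle, a log2 fold change of -6.83 ± 0.39. Fgfr4, the receptor of muscle progenitors and regenerating fibres (chr13:55152640-55168759), stood at 0.220 and 0.146 CPM in MEF and 30.1 and 26.05 CPM in muscle, a log2 fold change of 7.23 ± 0.51, and Fgfr3 rose from 1.82 and 1.36 CPM to 32.02 and 24.2 CPM.

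The neuregulin receptor Erbb3 (chr10:128567523-128589652), which acts at the synapse and in the nerve sheath, stood at 2.59 and 2.09 CPM in MEF and 225 and 228 CPM in muscle, a log2 fold change of 6.60 ± 0.32. Schwann cell and nerve markers, 6 of 6 tested, were lower in muscle, and the part of such cells in the Erbb3 values was not tested. Egfr fell from 159.7 and 151 CPM to 54.4 and 46.5 CPM. In the insulin-like growth factor system, Igf1 fell from 41.3 and 51.9 CPM to 5.80 and 6.51 CPM, Igfbp5 rose from 359 and 313 CPM to 1224 and 1275 CPM, and Igf2, Igf1r and Igf2r were not called. The PDGF receptors of mesenchyme, Pdgfra and Pdgfrb, fell, with Pdgfra at 79.7 and 102 CPM in MEF and 8.44 and 3.71 CPM in muscle, while the ligand Pdgfb rose from 3.58 and 1.80 CPM to 66.9 and 63.5 CPM. The neurotrophin gene Bdnf fell from 62.2 and 76.99 CPM to 13.9 and 10.04 CPM.

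**Figure D5:**
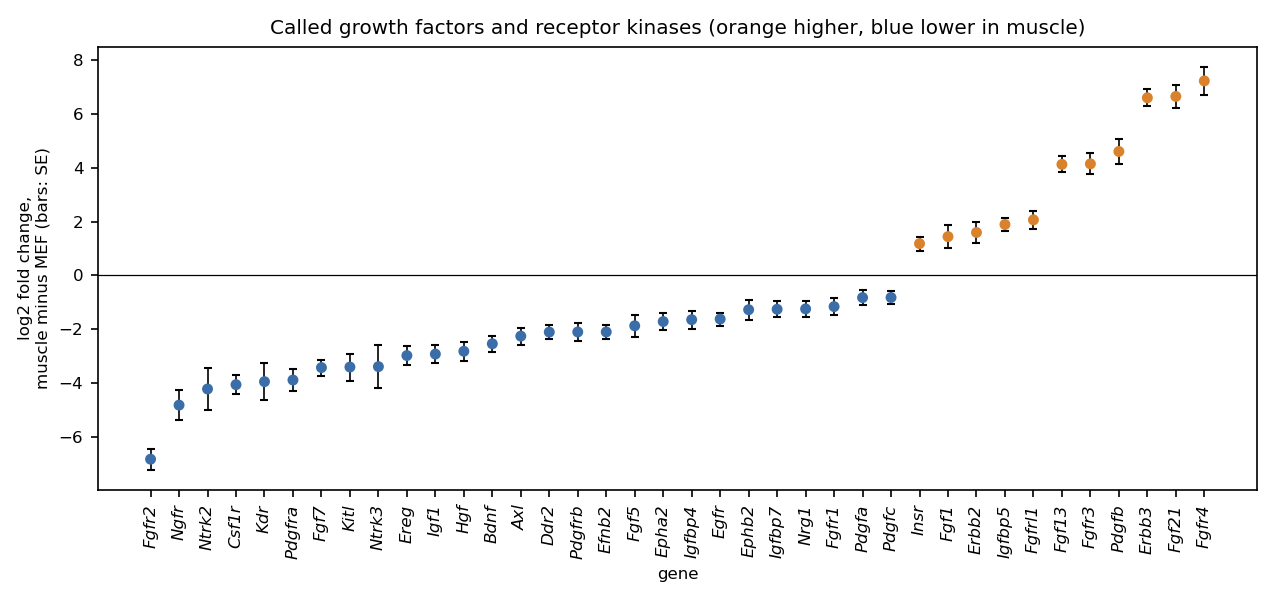
Log2 fold change (muscle minus MEF) with its standard error for 38 of the 41 called growth factor and receptor kinase genes, leaving out those with 3 or fewer counts in a group and 1 that is not reported here. Fgf21, Fgfr4 and Erbb3 lie above 6 and Fgfr2 at -6.83.

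TGF-beta and BMP signalling genes had 20 of 48 lower and 5 higher, with a median log2 fold change of -0.55. Tgfbr3, a coreceptor (chr5:107106570-107289629), fell from 231 and 199.7 CPM to 4.35 and 3.83 CPM, a log2 fold change of -5.71 ± 0.30, and Bmp4, a ligand, from 27.5 and 22.9 CPM to 0.768 and 0.609 CPM. The BMP antagonists divided, with Grem1 lower, at 344 and 392 CPM in MEF and 32.5 and 25.4 CPM in muscle, and Chrd and Nog higher, with Chrd at 10.6 and 4.13 CPM in MEF and 63.4 and 52.6 CPM in muscle. All of Id1, Id2, Id3 and Id4, BMP targets that block myogenic bHLH factors, fell. Id3 (chr4:136143497-136145755) stood at 1228 and 723 CPM in MEF and 62.9 and 44.6 CPM in muscle, a log2 fold change of -4.18 ± 0.41. Smad6 and Smad7, inhibitory targets of the pathway, fell as well, with Smad6 at 81.8 and 39.4 CPM in MEF and 4.31 and 2.43 CPM in muscle. Mstn (myostatin), the muscle-derived inhibitor of growth, had 3 counts in MEF and 12.6 and 13.02 CPM in muscle, a ratio of 165 (interval 56.2 to 804).

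Wnt and Hedgehog genes had 22 of 47 tested lower and 9 higher, with a median log2 fold change of -1.35. The higher share, 19.1%, was near the 17.3% of all tested genes. Sfrp1, a secreted Wnt antagonist (chr8:23411502-23449632), fell from 223 and 243 CPM to 1.11 and 0.913 CPM, a log2 fold change of -7.83 ± 0.37, and Rspo2, which potentiates Wnt signals, from 20.6 and 25.2 CPM to 0.171 and 0 CPM. Wif1, another antagonist, rose from 0.0551 and 0.291 CPM to 58.7 and 34.1 CPM, and Wnt9a, a ligand, from 11.3 and 9.33 CPM to 81.1 and 45.8 CPM. Hedgehog effectors Gli2 and Gli3 fell, with Gli3 at 79.4 and 66.4 CPM in MEF and 16.9 and 16.01 CPM in muscle. Hhip, an inhibitor and target of the pathway, had 2.92 and 5.05 CPM in MEF and no count in muscle, at least 25.7-fold lower. Cdon, a Hedgehog coreceptor that also promotes myoblast adhesion, rose from 46.04 and 39.9 CPM to 309 and 384 CPM.

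Notch genes had 4 higher (20%) and 7 lower (35%) of 20 tested, with a median log2 fold change of -0.24. The higher share was near the 17.3% of all tested genes, while 18.3% of all tested genes were lower. Jag2, a ligand (chr12:112907819-112929776), stood at 0.165 and 0.0971 CPM in MEF and 77.2 and 56.97 CPM in muscle, a log2 fold change of 8.95 ± 0.53, and Heyl, a target found in satellite cells, at 1.87 and 1.51 CPM in MEF and 57.8 and 44.6 CPM in muscle. Dlk1, a non-canonical ligand that is also imprinted, fell from 268 and 143 CPM to 2.90 and 0.304 CPM, a log2 fold change of -6.93 ± 0.83. The lower count was 4 without MEF replicate 1 or muscle replicate 1 and 3 without muscle replicate 2.

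Axon guidance genes had 8 of 41 tested higher (19.5%) and 16 lower (39.0%), with a median log2 fold change of -0.72. The higher share was near the 17.3% of all tested genes, while 18.3% of all tested genes were lower. Sema3e and Sema3b, secreted semaphorins, rose from 12.1 and 13.5 CPM to 88.95 and 145 CPM and from 9.86 and 7.38 CPM to 87.1 and 67.9 CPM. The repellents Slit2 and Slit3 fell, with Slit3 at 658 and 385 CPM in MEF and 50.2 and 25.7 CPM in muscle, a log2 fold change of -3.78 ± 0.47. Efna5, an ephrin, fell from 38.1 and 39.1 CPM to 2.47 and 2.01 CPM.

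Receptors coupled to G proteins and their downstream enzymes changed both ways, 17 higher and 21 lower of 57 tested, with a median log2 fold change of -0.13. Sctr, the secretin receptor (chr1:120006894-120063536), had no count in MEF and stood at 42.6 and 55.1 CPM in muscle, at least 314-fold higher. Adora1, an adenosine receptor, stood at 0.0551 and 0.146 CPM in MEF and 60.8 and 60.9 CPM in muscle. S1pr2, S1pr3 and F2r, receptors for sphingosine phosphate and thrombin, fell, with F2r at 1280.4 and 1029 CPM in MEF and 219.6 and 189.5 CPM in muscle. Ednrb, the endothelin B receptor, had 8.81 and 11.997 CPM in MEF and no count in muscle, at least 67.02-fold lower.

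Kinases and phosphatases in the same list also changed both ways. Camk2b (chr11:5969644-6066362), a calcium- and calmodulin-dependent kinase, stood at 0.716 and 0.389 CPM in MEF and 202 and 171 CPM in muscle, a log2 fold change of 8.40 ± 0.41, and Camk2a at 5.07 and 3.35 CPM in MEF and 392 and 361 CPM in muscle. Prkaca, the catalytic subunit of protein kinase A, rose from 246 and 171 CPM to 1254 and 1311 CPM. Dusp13 and Dusp27, phosphatase family members of muscle, reached 58.1 and 63.5 CPM and 113 and 123 CPM. Dusp4 and Dusp5, which switch off MAP kinases after growth factor signals, fell.

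Solute carriers for amino acids, metals and ions had 8 higher (19.5%) and 10 lower (24.4%) of 41 tested, with a median log2 fold change of -0.30. Both shares were near the 17.3% and 18.3% of all tested genes. Slc38a4, a neutral amino acid carrier, fell from 101 and 125 CPM to 2.86 and 2.37 CPM, and Slc1a3, a glutamate carrier, from 21.5 and 22.4 CPM to 0.384 and 0.183 CPM. Slc43a2, a carrier of branched-chain amino acids, rose from 3.25 and 2.38 CPM to 59.7 and 40.5 CPM, and Slc8a3, the sodium-calcium exchanger of muscle, from 0.496 and 0.0971 CPM to 28.9 and 24.7 CPM. Tfrc, the transferrin receptor, rose from 21.4 and 37.4 CPM to 87.8 and 121 CPM. Without muscle replicate 2 the lower count was 6.

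Transcription regulators of muscle genes had 26 of 49 tested higher and 6 lower, with a median log2 fold change of 1.17. Mef2c, the most changed MEF2 factor, rose from 9.58 and 14.3 CPM to 974 and 1181 CPM, a log2 fold change of 6.49 ± 0.34. Myf6, the regulator of late fibres, had no count in MEF and stood at 41.96 and 50.1 CPM, at least 296-fold higher. Myod1, which commits cells to myogenesis, stood at 1.43 and 0.534 CPM in MEF and 724 and 622 CPM in muscle. Lbx1, a factor of limb muscle precursors, had 1 count in MEF and 49.8 and 42.7 CPM in muscle. Ankrd2, a stretch-responsive cofactor, stood at 0.386 and 0.243 CPM in MEF and 147 and 182 CPM in muscle, and Klf5 and Egr1, from the mesenchymal list below, also rose. Without muscle replicate 2 the lower count was 1.

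Mesenchymal transcription factors had 44 of 67 tested lower and 7 higher, with a median log2 fold change of -1.78. Twist2, which holds mesenchymal cells undifferentiated, fell from 86.6 and 49.6 CPM to 1.62 and 3.47 CPM, a log2 fold change of -4.76 ± 0.47, and Snai2 from 101 and 102 CPM to 10.1 and 12.1 CPM. Tbx5, a factor of forelimb and heart mesenchyme, had 11.7 and 7.38 CPM in MEF and 1 count in muscle. Wt1, a factor of mesothelium and of the developing kidney, had 19.2 and 11.7 CPM in MEF and 2 counts in muscle. Sox11, known from neural and embryonic tissues, was the most raised, from 9.53 and 9.52 CPM to 201 and 136 CPM (log2 fold change 4.15 ± 0.32), and Klf5 rose from 67.5 and 47.9 CPM to 432 and 426 CPM.

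Chromatin genes had 11 of 56 higher and 8 lower, close to the background shares, with a median log2 fold change of -0.10. Hmga2, a chromatin protein of embryonic and dividing cells (chr10:120361275-120476469), fell from 327 and 365 CPM to 9.89 and 17.1 CPM, a log2 fold change of -4.68 ± 0.34, and Uhrf1, which guides maintenance methylation, from 24.8 and 19.04 CPM to 1.11 and 0.609 CPM. Cell-cycle genes moved in the same direction, and their part was not tested. Smarcd3, the muscle subunit of the SWI/SNF remodeller, rose from 14.7 and 10.7 CPM to 62.4 and 67.4 CPM, and Gadd45a, a stress and demethylation factor, from 16.9 and 19.9 CPM to 162 and 152 CPM. The higher count was 7 without muscle replicate 1 and 5 without muscle replicate 2, and the lower count was 4 without MEF replicate 1 or either muscle library.

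Imprinted genes changed often and in both directions, with 10 higher and 15 lower of 32 tested and a median log2 fold change of -0.22. H19, a noncoding RNA abundant in embryonic muscle (chr7:142575529-142578143), rose from 973 and 717 CPM to 4745 and 4254 CPM, a log2 fold change of 2.41 ± 0.26, while the neighbouring Igf2 was not called. In the domain of Dlk1, the RNAs Meg3, Rian and Mirg fell together with Dlk1, and Rian stood at 456 and 709 CPM in MEF and 84.9 and 82.8 CPM in muscle. In the domain of Peg3, Peg3, Usp29 and Zim1 rose, with Peg3 at 124 and 160 CPM in MEF and 512 and 638 CPM in muscle. Zdbf2, a paternally expressed gene, rose from 10.8 and 15.4 CPM to 276 and 341 CPM. Ndn (necdin) fell from 290.2 and 191 CPM to 47.6 and 31.5 CPM. Neighbouring transcripts can overlap, and no source used here says whether counting used strand.

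Long noncoding RNAs and small-RNA hosts had 8 higher and 6 lower of 27 tested, with a median log2 fold change of 0.39. The lower share, 22.2%, was near the 18.3% of all tested genes. Neat1, the scaffold of paraspeckles, rose from 68.3 and 91.1 CPM to 197 and 269.6 CPM. Dnm3os, host of a microRNA cluster of mesenchyme, fell from 41.7 and 56.7 CPM to 12.5 and 13.7 CPM. Without muscle replicate 2 the higher count was 4.

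Clock and hormone regulators had 12 of 37 higher and 6 lower, with a median log2 fold change of 0.50. The lower share, 16.2%, was near the 18.3% of all tested genes. Tef and Bhlhe41, clock-controlled factors, rose from 42.2 and 39.6 CPM to 164 and 158 CPM and from 7.16 and 4.66 CPM to 34.8 and 57.1 CPM. Dio2, which activates thyroid hormone, stood at 0.165 and 0.389 CPM in MEF and 15.6 and 48.4 CPM in muscle, a log2 fold change of 6.79 ± 0.73. Rxrg, the retinoid receptor of muscle, had 1 count in MEF and 19.4 and 12.6 CPM in muscle. Nr4a2, an immediate early receptor, fell from 22.4 and 14.8 CPM to 4.65 and 4.20 CPM. The time of day of sampling is not in the labels, and without muscle replicate 2 the lower count was 2.

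Genes of myoblast fusion and cell contact held 13 higher and 10 lower of 30 tested, with a median log2 fold change of 0.23. The fusogens Mymk (chr2:27061636-27072179) and Mymx, which merge myoblast membranes, stood at 3.36 and 1.55 CPM in MEF and 2304 and 1868 CPM in muscle and at 0.441 and 0.583 CPM in MEF and 239 and 217 CPM in muscle. Tmem182, a muscle membrane protein, stood at 0.386 and 0.437 CPM in MEF and 265 and 348 CPM in muscle, a log2 fold change of 9.51 ± 0.38. Itga7, the laminin receptor of fibres, rose from 20.98 and 12.4 CPM to 1210.2 and 1056 CPM. Cadherins exchanged, with Cdh15 (M-cadherin) at 0.496 and 0.486 CPM in MEF and 310 and 295 CPM in muscle and Cdh11, the mesenchymal cadherin, at 719 and 885 CPM in MEF and 127 and 114 CPM in muscle. Dock1 and Adam12, both known to act in fusion, were lower, with Adam12 at 224 and 234 CPM in MEF and 39.5 and 28.6 CPM in muscle.

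Genes outside all lists were examined for the most changed at 20 CPM or more. Nmrk2, a muscle kinase that makes NAD from nicotinamide riboside (chr10:81198170-81202051), had no count in MEF and stood at 28.4 and 28.4 CPM, at least 183-fold higher. Ky, which maintains fibre structure, and Gpr37, an orphan receptor, also had no count in MEF and were at least 134-fold and 153-fold higher. Others among the 12 most raised, such as Gm32914 at 31.1 and 45.6 CPM, are known by gene model names alone.

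On the MEF side, Upk3b, a uroplakin also made by mesothelium (chr5:136038496-136046487), stood at 69.5 and 52.6 CPM with no count in muscle, at least 393-fold lower. F3, the tissue factor that starts coagulation (chr3:121723537-121735048), fell from 777 and 799.9 CPM to 1.75 and 2.62 CPM, a log2 fold change of -8.51 ± 0.39. Gjb2, a gap junction protein, fell from 87.8 and 97.9 CPM to 0.0853 and 0.304 CPM, and Ptn, a growth factor that binds heparin, from 158 and 199 CPM to 1.24 and 0.487 CPM. Myh11, the myosin of smooth muscle, fell from 60.97 and 66.8 CPM to 0.128 and 0.122 CPM. Tnmd, a tendon protein, had 45.2 and 72.1 CPM in MEF and 1 count in muscle, although Scx, the tendon transcription factor, was higher in muscle at 159 and 163 CPM against 14.1 and 6.80 CPM.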

How the data were processed

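Poly(A) RNA had been extracted with Qiagen RNeasy columns, made into libraries with the Lexogen SENSE mRNA-seq V2 kit and read as 75-bp single ends on a NextSeq 500, per the labels' protocols. The authors deposited raw read counts per gene symbol for all libraries, with no normalization. The submitters' processing notes name Trim Galore 0.6.0, HISAT2 2.1.0, featureCounts 1.6.2, DESeq2 1.26.0 and the mm10 build. No source used here gives the annotation, the strand setting or the treatment of multiply mapping reads.

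From the counts, genes were kept by edgeR's filterByExpr, which left 17400 of 55286 symbols. Counts were scaled by TMM and tested with edgeR 4.0.16 (R 4.3.3) by robust quasi-likelihood fits over all 6 libraries, with 3 residual degrees of freedom. The contrast was muscle minus MEF, with Benjamini-Hochberg adjustment over all tested genes and a threshold of 0.05. Standard errors are the log2 fold change divided by the square root of F. The biological coefficient of variation was 27.3%. Replicates differed by more than sampling noise, with a chi-square per degree of freedom of 66.4 in MEF and 37.1 in muscle, so each library counts as 1 replicate. For lower bounds on fold, a group at 0 was set to the CPM of 3 counts in each library, averaged over its libraries. This limit was 0.15545 CPM in MEF and 0.15525 CPM in muscle. The fit was tested on simulated data.

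The comparison, the 38 lists of 1524 genes (1482 tested), the gene pairs, the motifs and the marker lists were chosen with earlier results of these data known. Named genes were, per list, up to 4 called genes with the largest change in the list's main direction and up to 3 in the other, with replicates that do not overlap and at least 10 CPM in the higher group. Both genes of each pair, up to 12 unlisted genes per direction at 20 CPM or more, and Myog, Ckm and Thy1 were added. Other genes named, among them most sterol genes and the synapse genes Chrne, Musk and Agrn, were chosen after their values were seen. Some genes that the rule names are not reported here, though list and pair counts include them. Gene positions and exon lengths are from GENCODE M21, in which 53250 symbols matched. Promoters are from RefSeq on GRCm38.p6. Alternatives were DESeq2 size factors, DESeq2 1.42.0, other count filters, the MEF and muscle libraries alone, a replicate block, a test against 2-fold and leaving out each library.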

Additional observations from a re-analysis of the deposited data

How the results depend on the processing

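The test against 2-fold was counted over all genes only and was not applied to the named genes or the lists. Under the other alternatives, none of the called genes that are named changed the sign of its log2 fold change. Of 473 named genes that were called, 399 kept the call under every one of those alternatives. Another 74 lost it under at least 1, and 51 of those lost it only when 1 library was left out. Counts of genes higher and lower were 3008 and 3198 with DESeq2 size factors, 3151 and 3368 with DESeq2, 3389 and 3579 with no filter, 3014 and 3202 with a minimum of 10 counts, and 2984 and 3295 with MEF and muscle libraries alone. When each gene was tested against a 2-fold change, 1745 were higher and 1753 lower.

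The replicate numbers are not stated to mark a shared source, and the difference between replicates 1 and 2 correlated at r = 0.314 between MEF and muscle across 17400 genes, which are not independent. With the replicate block, 2512 genes were higher and 2655 lower. The block left the triad list with 0 lower, phosphagen and purines with 1 lower, fatty acid oxidation with 9 higher, chaperones with 1 lower, translation factors with 1 lower and chromatin with 7 higher. With no filter, mitochondrial regulators had 5 lower and ribosome biogenesis 2 lower.

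Leaving out 1 library at a time moved the total from 1980 to 3223 higher and from 1778 to 3445 lower. List counts of higher genes then ranged from 5 to 11 for chromatin, 2 to 4 for cytokines, 8 to 15 for fatty acids, 7 to 17 for intermediate filaments, 4 to 10 for noncoding RNAs, 2 to 5 for redox, 1 to 2 for ribosomal proteins, 1 to 3 for ribosome biogenesis, 1 to 2 for the secretory pathway, 1 to 3 for serine and nucleotides and 1 to 3 for translation factors. Counts of lower genes ranged from 4 to 9 for chromatin, 5 to 8 for fatty acids, 1 to 11 for ribosomal proteins, 0 to 2 for ribosome biogenesis, 7 to 17 for the secretory pathway, 1 to 8 for serine and nucleotides, 1 to 2 for translation factors, 3 to 7 for Notch, 7 to 17 for autophagy and lysosome, 1 to 3 for calcium, 0 to 5 for chaperones, 2 to 6 for clock and hormones, 0 to 1 for the triad, 2 to 7 for glycolysis, 0 to 3 for ion channels, 1 to 5 for mitochondria, 0 to 2 for phosphagen and purines, 6 to 11 for solute carriers, 4 to 8 for splicing and 1 to 8 for muscle transcription regulators. The larger of the higher and lower counts changed sides without muscle replicate 2 for all tested genes (1980 and 1778), Notch (4 and 3) and solute carriers (7 and 6), without MEF replicate 1 for Notch (5 and 4) and without MEF replicate 2 for chromatin (8 and 9). In such a fit the group with 1 library is assumed to vary like the others.

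With 2 libraries a group and 3 residual degrees of freedom, a gene that missed the threshold is not shown to be equal between muscle and MEF. Genes near 1 CPM rest on few counts, and their intervals cover counting error only. The source of the muscle, the sex of the cells and the counting of copies and strands limit what the values describe.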
